A study of Homo sapiens with 6 samples.

Results

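PEBP1, also called RKIP, and genes of the RAS, RAF and MEK steps of the ERK cascade were examined in HCT116 cells given miR-224. Of 7 genes chosen by name (PEBP1, NRAS, HRAS, ARAF, BRAF, MAP2K1 and MAP2K2), 5 had a probe set that the array annotation assigned to that gene alone, namely PEBP1, HRAS, ARAF, MAP2K1 and MAP2K2. NRAS and BRAF were not analysed here. The 5 genes were read by 10 of the 54613 probe sets tested: 3 for PEBP1, 3 for MAP2K2, 2 for ARAF and 1 each for HRAS and MAP2K1. HCT116, a long-established line from a human colon carcinoma, received miR-224 precursor molecules or control oligos by transfection, each at 50 nM, 24 h before total RNA was prepared. There are 3 miR-224 and 3 control arrays, 1 pair from each of 3 independent experiments as the series states. Levels are the authors' RMA values, read on a log2 scale, and every difference is miR-224 minus control within an experiment. The comparison asks whether the messenger RNAs of these genes differ when the cells carry more miR-224.

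In this cascade a growth factor receptor loads RAS proteins with GTP, RAS recruits a RAF kinase to the membrane, RAF phosphorylates the MEK kinases, and MEK phosphorylates ERK. PEBP1 encodes the RAF kinase inhibitor protein, which binds RAF and keeps it from phosphorylating MEK, so it acts as a brake between both kinases. A microRNA pairs through its seed, bases 2 to 8, with messenger RNAs, which are then degraded or translated less, and PEBP1 has been reported as a target of miR-224 in other cancer cells. The arrays measured messenger RNA, not protein or phosphorylated ERK. In bulk RNA, less transcript in every cell and fewer cells with the transcript cannot be told apart.

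The reference sequences of both arms of miR-224 are shown because the 5p arm carries the seed through which a transcript such as PEBP1 would be bound. They are from RefSeq (GRCh38.p14, chromosome X, minus strand), 5′ to 3′, with the seed in capitals; the 5p arm lies at chrX:151958628-151958652 and the 3p arm at chrX:151958584-151958606.
hsa-miR-224-5p: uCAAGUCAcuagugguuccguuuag
hsa-miR-224-3p: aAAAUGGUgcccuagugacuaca
The perfect DNA match to the 5p seed reads TGACTTG. Among the 2545 mature human microRNAs of the table, 0 others shared the seed of the 5p arm and 0 shared that of the 3p arm. Matches in PEBP1 or in the other transcripts were not analysed here. The sequence of the transfected precursor molecules was not examined, so the seeds shown are those of the reference sequences.

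The arrays of experiment 1 stood apart from the other 4 before any comparison of treatments. The control probe set for the 5′ end of actin read 4.14 on the miR-224 array and 4.42 on the control array of experiment 1, and 12.3 to 12.5 on the arrays of experiments 2 and 3, while the 3′ probe set read 12.4 to 12.5 on all 6. GAPDH showed the same split at its 5′ end, with 4.39 on the miR-224 array and 3.80 on the control array of experiment 1, and 13.0 on each of the other 4. Both groups of experiment 1 had this low 5′ signal. Of 6 markers of a colon epithelial line, 5 (EPCAM, KRT8, KRT18, KRT19 and CDH1) lay at or above the median gene level of 4.75 and CDH17 did not, with a mean of 2.45. None of 3 immune and 3 endothelial markers reached that level, and of 3 fibroblast markers COL1A1 did, at 5.96.

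No member passed the test between miR-224 and control cells. In limma's moderated test with experiment as a block, 0 of the 10 member probe sets reached the threshold of 0.05 on the adjusted p, where 0% of all 54613 probe sets did. Before adjustment 0 of the 10 lay under 0.05, where 9.8% of all probe sets did. The differences of the 10 ran from -0.13 to 0.12 with a median of 0.03, against a median of 0.01 over all probe sets. Among the 8 member probe sets at or above the median level of all probe sets (3.48), the median size of the difference, whatever its sign, was 0.05, and over all probe sets at or above that level it was 0.12. The miR-224 and control values overlapped in all 10, where 6.66% of all probe sets had groups without overlap. None of the 10 had the same sign in all 3 experiments, where 31.4% of all probe sets did.

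**Figure D1:**
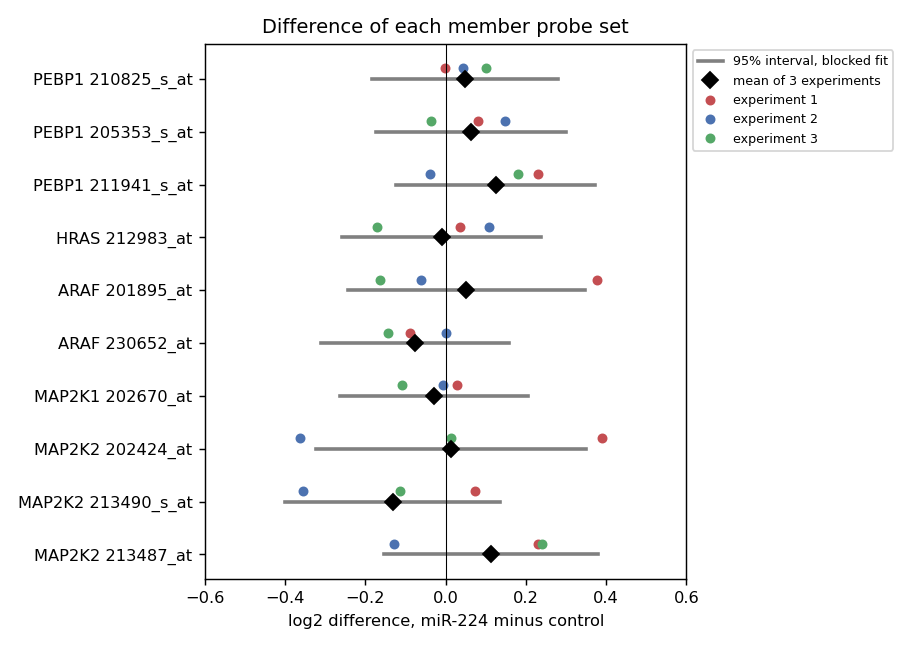
Log2 difference, miR-224 minus control, of each of the 10 member probe sets; coloured points are the 3 experiments, diamonds their mean, and bars the 95% interval of the blocked limma fit. Every bar crosses 0, the means lie between -0.13 and 0.12, and single experiments between -0.36 and 0.39.

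PEBP1 messenger RNA was not lower in miR-224 cells on average on any of its 3 probe sets. On the brightest, 210825_s_at, PEBP1 read 10.32, 9.93 and 10.05 in miR-224 cells of experiments 1, 2 and 3, against 10.32, 9.89 and 9.95 in their controls. Both groups were highest in experiment 1, and the widest gap within a pair was 0.10, in experiment 3. The difference was 0.05 ± 0.10 (SE, n = 3 pairs; limma adjusted p = 0.92), with a 95% interval of -0.18 to 0.28. As a ratio this is 1.03-fold, with an interval of 0.88 to 1.21, so a level under 0.88 of the control lies outside the interval for this probe set.

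The other PEBP1 probe sets gave differences of the same sign. On 205353_s_at the levels were 9.76, 9.45 and 9.53 in miR-224 cells and 9.68, 9.31 and 9.57 in control cells, a difference of 0.06 ± 0.10 (SE, n = 3 pairs; limma adjusted p = 0.89). On 211941_s_at they were 8.76, 9.91 and 9.97 in miR-224 cells and 8.53, 9.95 and 9.79 in control cells, a difference of 0.12 ± 0.11 (limma adjusted p = 0.77). This probe set was low on both arrays of experiment 1, at -1.26 relative to the mean of the other 4, whereas 210825_s_at and 205353_s_at stood at 0.36 and 0.26. Over the 3 probe sets and 3 experiments, 6 of 9 PEBP1 differences lay above 0 and 3 below, from -0.04 to 0.23. The 3 probe sets read the same 6 RNA samples and are not replicates of the comparison. The lower ends of their intervals were -0.18, -0.17 and -0.12.

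**Figure D2:**
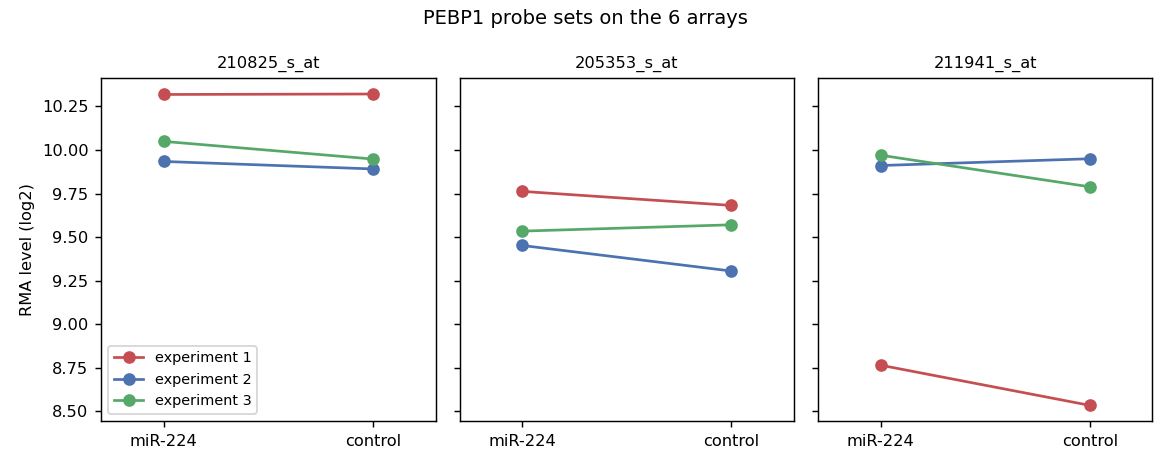
PEBP1 level (log2 RMA value) on each of its 3 probe sets, miR-224 at left and control at right, with a line joining both arrays of an experiment. The lines are nearly flat, with miR-224 minus control between -0.04 and 0.23, and on 211941_s_at the pair of experiment 1 lies at -1.26 relative to the mean of the others.

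HRAS, a small GTPase that passes receptor signals on to RAF, read 8.28, 8.29 and 8.35 in miR-224 cells of experiments 1, 2 and 3, against 8.25, 8.18 and 8.52 in control cells. The miR-224 arrays lay within the range of the controls, and the control of experiment 3 was the highest of the 6. The difference was -0.01 ± 0.11 (SE, n = 3 pairs; limma adjusted p = 0.99; 95% interval -0.26 to 0.24). The mean of each HRAS pair was 8.27, 8.23 and 8.44 in experiments 1, 2 and 3, so the pairs lay further apart than the group means.

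ARAF encodes the RAF kinase among the genes measured. Its brighter probe set, 201895_at, read 6.17, 6.91 and 6.64 in miR-224 cells and 5.79, 6.97 and 6.81 in control cells. Experiment 1 was lowest in both groups, and the difference had one sign there (0.38) and the other in experiments 2 and 3 (-0.06 and -0.16). Over the 3 pairs the ARAF difference was 0.05 ± 0.13 (SE; limma adjusted p = 0.93; 95% interval -0.24 to 0.35), and it was -0.11 without experiment 1. The second ARAF probe set, 230652_at, was dim in experiments 2 and 3, at 2.26 to 2.43, and read 3.96 in miR-224 cells and 4.05 in control cells of experiment 1. Its difference was -0.08 ± 0.10 (limma adjusted p = 0.86). Relative to the mean of experiments 2 and 3, experiment 1 stood at -0.86 on the first ARAF probe set and at 1.62 on the second.

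The MEK genes MAP2K1 and MAP2K2 encode the dual-specificity kinases that phosphorylate ERK. MAP2K1 read 8.17, 7.998 and 7.66 in miR-224 cells of experiments 1, 2 and 3, against 8.14, 8.01 and 7.77 in control cells. Its levels followed the experiment, with experiment 3 lowest in both groups, and the difference was -0.03 ± 0.10 (SE, n = 3 pairs; limma adjusted p = 0.95; 95% interval -0.26 to 0.20).

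MAP2K2 on its brightest probe set, 202424_at, read 9.15, 8.36 and 8.90 in miR-224 cells, against 8.76, 8.72 and 8.89 in control cells. The miR-224 arrays spread more widely (SD 0.40, n = 3) than the controls (SD 0.09, n = 3), as they held both the highest and the lowest value of the 6. The pairs differed by 0.39, -0.36 and 0.01 in experiments 1, 2 and 3, which gave a mean difference of 0.01 ± 0.15 (SE; limma adjusted p = 0.99; 95% interval -0.32 to 0.35). No other member had so wide a spread between pairs on its brightest probe set, with an SD of the pair differences of 0.38, against 0.29 for ARAF, 0.15 for HRAS, 0.07 for MAP2K1 and 0.05 for PEBP1; these spreads were not tested against each other.

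The other MAP2K2 probe sets differed from the first in level and in experiment 1. On 213490_s_at MAP2K2 read 2.91, 6.20 and 6.45 in miR-224 cells and 2.84, 6.55 and 6.56 in control cells. Both arrays of experiment 1 were far below the others, at -3.56 relative to their mean, while on 202424_at experiment 1 stood at 0.23. The treatment difference on 213490_s_at was -0.13 ± 0.12 (SE, n = 3 pairs; limma adjusted p = 0.77). The third MAP2K2 probe set, 213487_at, was dim on all arrays, at 3.05 to 3.52 in miR-224 cells and 2.82 to 3.404 in control cells, with a difference of 0.11 ± 0.12 (limma adjusted p = 0.81).

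On several member probe sets the experiments lay further apart than the groups. Of the 10, PEBP1 211941_s_at and MAP2K2 213490_s_at were lower in experiment 1 by more than 1 on the log2 scale, where 4.46% of all probe sets were, and ARAF 230652_at was higher by more than 1, where 5.03% of all were. The 5′ signal of actin and GAPDH was low on the same arrays, and its part in these shifts was not tested. Both arrays of a pair shared the shift, and the pair differences of these 3 probe sets lay between -0.35 and 0.23. Some of these pairs were dim, under the median level of 3.48. They were MAP2K2 213490_s_at in experiment 1 (2.91 and 2.84) and ARAF 230652_at in experiments 2 and 3 (2.26 to 2.43). By experiment, 8 of the 10 probe sets were higher in miR-224 cells of experiment 1, 3 in experiment 2 and 4 in experiment 3, where 50%, 49.7% and 52.5% of all probe sets were higher.

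**Figure D3:**
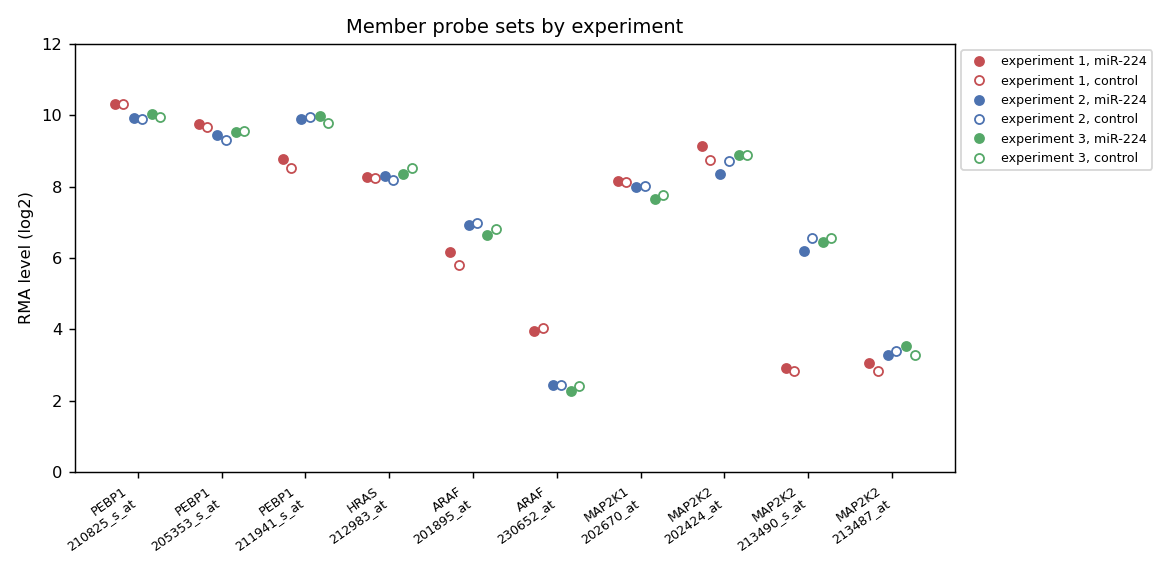
Level (log2 RMA value) of each of the 10 member probe sets on all 6 arrays, grouped by experiment, with filled points for miR-224 and open points for control. The filled and open points of MAP2K2 202424_at differ by 0.39 in experiment 1 and by -0.36 in experiment 2, the widest gaps within pairs, while experiment 1 lies at -3.56 relative to the mean of the others on MAP2K2 213490_s_at, at -1.26 on PEBP1 211941_s_at and at 1.62 on ARAF 230652_at.

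The ERK step is represented by MAPK3, which encodes ERK1. It was not among the 7 genes and was added after its values were seen. MAPK3 read 7.27, 7.65 and 7.82 in miR-224 cells, against 7.35, 7.42 and 7.50 in control cells, a difference of 0.15 ± 0.12 (SE, n = 3 pairs; limma adjusted p = 0.73).

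The genes whose levels followed PEBP1 most closely over the 6 arrays, among 9887 other genes at or above the median gene level, were NOB1 (Pearson r = 0.998), EIF3H (0.994) and SLC7A2 (0.994). The 6 arrays share their experiments and the authors' normalization, and like PEBP1 these 3 genes were highest in experiment 1. Their treatment differences were 0.05 for NOB1, 0.02 for EIF3H and 0.23 for SLC7A2.

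Genes around the cascade were described through 5 lists of 78 genes, of which 74 were measured, each by its brightest probe set. By limma with experiment as a block, 0 of the 74 passed an adjusted p under 0.05, as did 0% of all 19775 genes. An unadjusted p under 0.05 was found for 12 of them, 8 higher and 4 lower in miR-224 cells, or in the background for 10.2% of all genes (5.05% higher and 5.19% lower). The count of 12 changed with the fit: it was 11, 4 and 8 without experiment 1, 2 or 3, and 2 without the block. The count over the whole array moved as well. Of all 54613 probe sets, 5352 had an unadjusted p under 0.05 in the main fit. Without experiment 1, 2 or 3 it was 5796, 3644 and 4423, and without the block 1067. The genes named in each list have the smallest p among its members at or above the median gene level.

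Among the activators of RAS, which link receptors to GTP loading, 6 of 12 measured genes had a higher mean in miR-224 cells and 6 a lower one, and the median difference was -0.01. The receptor tyrosine kinase MET stood at 0.13 ± 0.11 (SE, n = 3 pairs), the receptor ERBB2 at -0.09 ± 0.11 and the adaptor GRB2 at -0.06 ± 0.10. Another ERBB2 probe set, 210930_s_at, stood at 0.56 ± 0.19 (limma unadjusted p = 0.016, limma adjusted p = 0.40), with the opposite sign. It was dim, with a mean of 3.78, above the median of all probe sets (3.48) but under the median gene level of 4.75. Its pairs differed by 0.65, 1.07 and -0.03 in experiments 1, 2 and 3. The other MET probe sets stood at -0.20, 0.12 and 1.04. On the brightest probe set of each gene, the limma adjusted p of all 12 was 0.66 or higher.

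Among the brakes on RAS, which promote GTP hydrolysis or RAS turnover, 3 of 8 measured genes were higher and 5 lower, with a median of -0.10. RASA2, a GTPase-activating protein for RAS, had the smallest p of this list. RASA2 read 5.02, 6.05 and 5.98 in miR-224 cells of experiments 1, 2 and 3, against 5.73, 6.97 and 6.09 in control cells. It was lower in each experiment, by unequal amounts of -0.71, -0.92 and -0.12, although the groups overlapped. The difference of -0.58 ± 0.15 (SE; unadjusted p = 0.0051) missed the threshold with a limma adjusted p of 0.32. The other RASA2 probe sets stood at -0.73 ± 0.13 (226392_at, limma adjusted p = 0.23) and -0.41 ± 0.11 (206636_at, limma adjusted p = 0.31), each lower in all 3 experiments. SPRED1, which brings neurofibromin to RAS, stood at -0.15 ± 0.10 on its brightest probe set, but at 0.06 ± 0.11 (235074_at) and 0.25 ± 0.10 (244439_at, limma adjusted p = 0.47) on dimmer ones, the last higher in all 3 experiments. LZTR1, a ubiquitin ligase adaptor for RAS proteins, stood at -0.14 ± 0.11.

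Of 12 genes for lipid processing and trafficking of RAS, 5 were higher and 7 lower, with a median of -0.01. ICMT, which methylates the farnesylated end of RAS, stood at 0.38 ± 0.13 (SE, n = 3 pairs; limma adjusted p = 0.41), and its other bright probe set at 0.54 ± 0.15. The depalmitoylating enzyme LYPLA2 stood at 0.26 ± 0.11 (limma adjusted p = 0.51). PDE6D, which carries prenylated RAS through the cytosol, stood at 0.18 ± 0.10 (limma adjusted p = 0.60). It read 7.35, 7.43 and 7.24 in miR-224 cells against 7.18, 7.17 and 7.12 in control cells, so its groups did not overlap. RCE1 (higher) and FNTB (lower) of this list, not among the genes named by rule, did not overlap either, as 6.66% of all probe sets did not. The other PDE6D probe sets stood at 0.13 ± 0.10 (216883_x_at) and, below the median level, -0.36 ± 0.18 (231065_at).

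Of 22 genes listed as scaffolds and regulators of RAF and MEK, 17 had a higher mean in miR-224 cells and 5 a lower one. Their median difference was 0.09, where over all genes 46.8% were lower and the median was 0.01. The list is broad and also holds ERF and GRK2, described below, so its counts are not of RAF and MEK regulators alone. The list median was 0.06, 0.12 and 0.06 in experiments 1, 2 and 3, but 5 of the 22 genes had the same sign in all 3 experiments, where 32.7% of all genes did. No gene of this list passed the threshold. An unadjusted p under 0.05 was found for 4 higher and 0 lower genes, where 5.05% of all genes were higher and 5.19% lower at that p. They were the 3 named below by rule and PAQR3, which stood at 0.30 ± 0.13 (limma adjusted p = 0.50). ERF, a transcriptional repressor that ERK phosphorylates, stood at 0.30 ± 0.10 (SE, n = 3 pairs; limma adjusted p = 0.41). On its other probe set, 230368_at, ERF stood at 0.06 ± 0.11. GRK2, the receptor kinase that PEBP1 inhibits once phosphorylated, stood at 0.29 ± 0.10 (limma adjusted p = 0.43) on its brightest probe set and at -0.06 and 0.12 on the other probe sets. LAMTOR3, a scaffold that holds MEK and ERK together, stood at 0.40 ± 0.16 (limma adjusted p = 0.48), with 0.43, 0.83 and -0.06 in experiments 1, 2 and 3. Its dimmer probe set, 227562_at, had the opposite sign, at -0.22 ± 0.14 (limma adjusted p = 0.66). That probe set was lower in each experiment, by -0.02, -0.03 and -0.59.

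Transcripts that respond to ERK activity gave a mixed picture, with 14 of 20 higher and 6 lower and a median of 0.06. DUSP6, a phosphatase that removes the activating phosphates of ERK and is itself induced by ERK, read 7.87, 7.03 and 7.49 in miR-224 cells, against 7.61, 6.61 and 6.73 in control cells. It was higher in each experiment, by 0.26, 0.42 and 0.75, while the groups overlapped. The mean difference was 0.48 ± 0.12 (SE; unadjusted p = 0.0045) and missed the threshold with a limma adjusted p of 0.31. Its other probe sets stood at 0.39 ± 0.12 (208892_s_at) and 0.23 ± 0.15 (208893_s_at). The first was higher in each experiment, but 208893_s_at stood at -0.22, 0.31 and 0.59 in experiments 1, 2 and 3. CCND1, which encodes cyclin D1, read 9.86, 8.64 and 9.03 in miR-224 cells, against 9.79, 9.43 and 9.99 in control cells. It was lower in experiments 2 and 3, by -0.79 and -0.96, and stood at 0.07 in experiment 1, with a mean of -0.56 ± 0.19 (limma adjusted p = 0.40). EMP1 stood at -0.32 ± 0.11 (limma adjusted p = 0.43) on its brightest probe set and at 0.01 ± 0.11 on the next. The remaining ERK feedback and response genes differed among themselves and between experiments, and those given here were named after their values were seen. EGR1 stood at 0.47 ± 0.23, with 1.25 in experiment 2 and -0.19 in experiment 1, and DUSP5 at 0.30 ± 0.18, with 0.88 in experiment 2 and -0.18 in experiment 3. SPRY1 stood at 0.22 ± 0.14, with 0.62 in experiment 3 and -0.05 in experiment 2. DUSP4 stood at 0.08 ± 0.10, ETV4 at 0.03 ± 0.10 and SPRY4 at -0.10 ± 0.11. EPHA2 stood at -0.23 ± 0.19, with 0.22 in experiment 1 and -0.85 in experiment 3, SPRY2 at -0.08 ± 0.13 and FOSL1 at -0.03 ± 0.12. SPRY1 and SPRY2 had mean levels of 4.08 and 4.49, under the median gene level of 4.75.

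**Figure D4:**
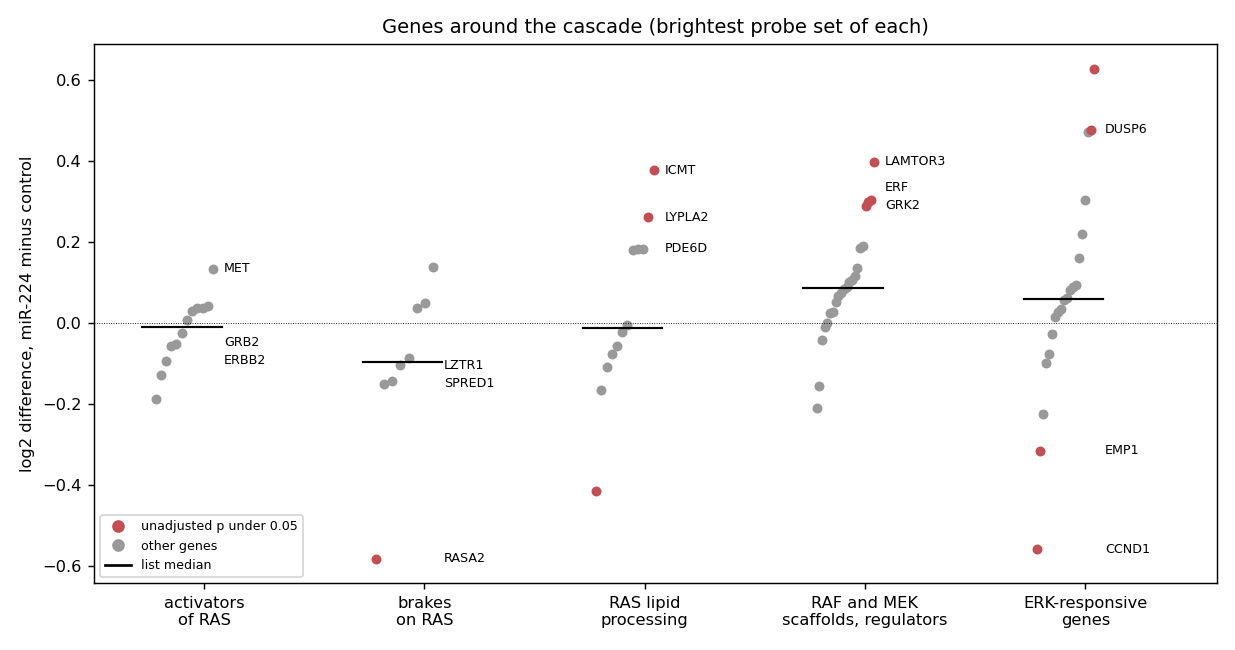
Log2 difference, miR-224 minus control, of the brightest probe set of each of 74 genes in 5 lists around the cascade; red points have an unadjusted p under 0.05, black lines are list medians, and labels are the genes named by rule. List medians lie between -0.10 and 0.09, and the labelled genes reach from -0.58 (RASA2) to 0.48 (DUSP6).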

How the data were processed

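The values are those of 6 Affymetrix expression arrays of biotin-labelled total RNA. The authors processed them with RMA and Partek, per the submitters' processing notes, with versions and settings not given in the sources used here. The deposited values were read as log2 values; base 2 is not stated, and they lay between 1.47 and 13.6 with array medians from 3.41 to 3.53. RMA makes the arrays' distributions alike, so a shift common to most genes does not show. The number of arrays limits the precision.

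Probe sets were named by the array annotation: 41091 had 1 gene symbol, 1801 had several, and 62 control probe sets entered no fit. No symbol changed through the RefSeq gene table. Fits used limma 3.58.1 in R 4.3.3 (lmFit, eBayes, two-sided, Benjamini-Hochberg over all 54613 probe sets, threshold 0.05), with experiment as a block, as the series describes pairs; this leaves 2 residual degrees of freedom, so standard errors and 95% intervals lean on variances pooled over probe sets. Deviations from group means correlated between same-numbered arrays at 0.902, 0.734 and 0.783. The fit was tested on simulated data. Alternatives were no block, each experiment left out, 2 further normalizations, a filter on dim probe sets, 1 probe set or the mean per gene, other variance settings and another threshold. Named genes are all member probe sets, the 3 smallest p of each list (levels under the median gene level left out) and the 3 genes most like the brightest PEBP1 probe set. Members and lists were chosen with earlier results of these data known. Figures were drawn with matplotlib 3.10.9.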

Additional observations from a re-analysis of the deposited data

How the results depend on the processing

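No member probe set passed under any of the 10 alternatives run, nor did any of the 74 list genes under the 9 run for them. The count over the whole array was 0 in the main analysis, 137 without replicate 1 and 0 without replicate 2 or 3, 28 with an intensity trend and robust variances, and 2 at an adjusted p under 0.1. Those 2 were probe sets of RARA (1.31) and NFATC2IP (-1.22), named after their values were seen. The PEBP1 difference of 0.05 kept its sign in every alternative, from 0.02 to 0.07 with an experiment left out (without replicate 3 and without replicate 1), and was 0.03 after either further normalization and 0.08 with the mean of its probe sets. Without the replicate block it was again 0.05, with a standard error of 0.17. With or without the block, 0 probe sets of the whole array passed, so no call of a member or list gene could change. Differences close to 0 changed sign in 7 cases, none past the threshold: with an experiment left out, ARAF ranged from -0.11 (without replicate 1) to 0.158, HRAS from -0.0684 to 0.0717 (without replicate 3), MAP2K1 from -0.0580 to 0.00996 (without replicate 3) and MAP2K2 from -0.18 (without replicate 1) to 0.202. With the mean of the probe sets ARAF was -0.0132 and MAP2K2 -0.00173, and MAP2K2 was -0.00512 after median centring. The causes were not tested. With an experiment left out, 1 residual degree of freedom is left. A dim signal limits ARAF 230652_at and MAP2K2 213487_at, which lie below the median level. It also limits the experiment 1 pair of MAP2K2 213490_s_at (2.91 and 2.84), and without replicate 1 that probe set differed by -0.23.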

Other observations

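FOS and FNTB also had an unadjusted p under 0.05 by limma with experiment as a block, but their brightest probe sets lay below the median gene level. FOS, an immediate early transcription factor gene, stood at 0.01, 0.68 and 1.19 in experiments 1, 2 and 3. FNTB, the beta subunit of the farnesyltransferase that lipidates RAS, stood at -0.07, -0.67 and -0.50.

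One probe set of MET, 213816_s_at, gave different readings within a group. It read 2.38, 6.72 and 6.74 in miR-224 cells of experiments 1, 2 and 3, against 2.47, 3.58 and 6.68 in control cells. Its difference in experiment 2 was 3.14, whereas the brightest MET probe set differed there by 0.34. The low reading in experiment 1 was not particular to 213816_s_at. Relative to the mean of experiments 2 and 3, experiment 1 stood at -3.50 on 213816_s_at, -3.96 on 213807_x_at and -5.35 on 211599_x_at. On the brightest MET probe set it stood at 0.23. CDC37, a chaperone for RAF kinases, stood in experiment 1 at -3.86 relative to the mean of the others on its brightest probe set, near the -3.56 of MAP2K2 213490_s_at. These genes were named after their values were seen.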
